A study of Mus musculus with 39 samples.

Results

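The 42 genes described here drive or mark the cell division cycle, from the D-type cyclins of G1 to the kinesins that separate the daughter cells. They were taken from a list of gene symbols, chosen with earlier results of these data known. All 42 matched 1 gene each of the 55573 in the count tables, and all 42 were among the 18442 genes with enough reads to be tested. After sciatic nerve crush, 32 of the 42 rose in control endoneurium 2 weeks post-crush (wpc), against 19.8% of all genes tested, and 31 of the 42 in endoneurium with a Schwann cell knockout of the leptin receptor, against 20.9%. At 4 wpc, 10 of the 42 were higher than in the uninjured nerve in controls, against 20.1% of all genes, and 20 in the knockout, against 16.8%. With all libraries in the fit, edgeR called no gene of the 42 between the genotypes at either time or in either nerve. DESeq2 called 1, Aurkb, in injured nerve at 4 wpc, where it called 129 of all genes. In edgeR, leaving out single libraries gave 0 to 8 calls between the genotypes in injured nerve at 4 wpc. The 8, all higher in the knockout and against 1.90% of all genes, came without the knockout library lowest in these genes in its group.

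Endoneurium, the tissue of Schwann cells, axons, fibroblasts, vessels and immune cells inside a nerve fascicle, was taken from mouse sciatic nerve, and its poly(A) RNA was sequenced in 39 libraries from 22 mice. Lepr-ctrl mice were Leprfl/fl without Cre. Lepr-cKO mice were Leprfl/fl::Dhh-Cre, in which Cre is driven by the desert hedgehog gene of the Schwann cell lineage and removes Lepr exon 1. All mice were on a C57BL/6 background, of both sexes and 2 to 4 months old. The crushed nerve (injured) and the contralateral nerve (healthy) were collected at 2 or 4 wpc from different mice. At 2 wpc there were 5 Lepr-ctrl healthy, 5 Lepr-ctrl injured, 6 Lepr-cKO healthy and 5 Lepr-cKO injured libraries. At 4 wpc there were 5, 4, 5 and 4 libraries in the same order. In 17 mice both nerves were sequenced and in 5 mice only 1 was. Healthy nerve is thus the uncrushed side of a mouse with 1 crushed nerve.

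Between 10905806 and 45016322 reads were counted in a library (median 27752451). Levels are given as CPM, read counts scaled to library size, and 1 CPM was 10.9 reads in the smallest library. By group median the Lepr-ctrl injured libraries at 4 wpc were the least deep, at 10905806 to 17640587 reads (median 14158795). The Lepr-cKO injured libraries at 4 wpc overlapped them, at 15071347 to 25923752 reads, with the fewest in KO-177Sni. Lepr itself had 5.79 to 14.7 CPM in healthy and 20.8 to 121 CPM in injured libraries, and the genotypes overlapped. A count over the whole gene does not check the deletion, since knockout tissue still makes a transcript that lacks the deleted exon. Skeletal muscle markers summed to 41400 CPM in the Lepr-cKO injured 2 wpc library SLRKO2wpc126i (SLRKO2wpc stands in the labels of both genotypes at 2 wpc) and to 4.20 to 34.0 CPM in all other libraries. The Schwann cell marker Sox10 was present in every library.

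A dividing cell passes through G1, in which D-type cyclins release E2F transcription factors, S phase, in which the MCM helicase opens DNA for replication, and G2 and mitosis, which are run by cyclin-dependent kinase 1 with cyclins A and B. Most of the mitotic genes are transcribed only in cycling cells, while many of the replication and G1 genes are also transcribed in resting tissue. In the adult nerve Schwann cells rarely divide, and after a crush the distal nerve is known for dividing Schwann cells, macrophages, fibroblasts and endothelial cells. In whole endoneurium, a lower level of a transcript can mean fewer cells that make it or less of it per cell, and the counts cannot tell these apart.

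Promoter sequence of RefSeq (GRCm38.p6, 250 bases before and 50 bases after the start) was at hand for 33 of the 42 genes. It was read because the promoters of late cell cycle genes are known for a cell cycle homology region (CHR) next to CCAAT boxes, and those of replication genes for E2F sites. Of the 33 genes, 17 (51.5%) held a CHR (TTTGAA or TTCGAA on either strand), against 21.7% of 27025 genes. CCAAT was in 27 of 33 (81.8%), against 41.1%, and CHR together with CCAAT in 17 of 33 (51.5%), against 8.61%. An E2F motif (searched as TTCCCGC, next as TTCGCGC, next as TTGCCGC and last as TTGGCGC) was in 10 of 33 (30.3%), against 10.9%. No promoter sequence was used for Aurkb, Ccna2, Ccnd1, Ccnd2, Ccne2, Foxm1, Kif20a, Mcm4 and Tpx2. The 120-base stretches follow, from Cdk1 (chr10:69352939-69353058, minus strand), Top2a (chr11:99024190-99024309, minus strand), Kif11 (chr19:37376262-37376381, plus strand), Mcm6 (chr1:128359706-128359825, minus strand) and Rrm1 (chr7:102441575-102441694, plus strand). The first 3 belong to mitotic genes that rose after injury and the last 2 to replication genes that were not called in any injury comparison. Each is written 5′ to 3′ along its gene and ends 1 base before the start, or 27 bases before it for Cdk1, and capitals mark a CHR, CCAAT or E2F motif on either strand, with 2 E2F motifs overlapping on opposite strands in each of the longer runs of Mcm6.
Cdk1: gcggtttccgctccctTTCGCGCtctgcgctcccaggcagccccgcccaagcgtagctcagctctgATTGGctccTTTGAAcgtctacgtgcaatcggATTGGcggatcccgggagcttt
Top2a: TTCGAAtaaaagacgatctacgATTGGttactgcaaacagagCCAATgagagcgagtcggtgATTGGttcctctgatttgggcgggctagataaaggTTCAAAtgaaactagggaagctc
Kif11: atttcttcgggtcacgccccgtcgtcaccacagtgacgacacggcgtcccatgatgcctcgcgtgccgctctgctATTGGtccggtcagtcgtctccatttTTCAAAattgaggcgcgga
Mcm6: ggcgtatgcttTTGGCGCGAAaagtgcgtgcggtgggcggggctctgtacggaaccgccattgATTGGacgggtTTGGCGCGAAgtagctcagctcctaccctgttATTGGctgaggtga
Rrm1: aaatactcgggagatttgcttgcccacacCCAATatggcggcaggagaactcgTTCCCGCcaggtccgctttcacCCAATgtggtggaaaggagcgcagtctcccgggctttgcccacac

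In the windows shown, Cdk1, Top2a and Kif11 hold a CHR with CCAAT nearby, and Cdk1 holds an E2F motif as well. Mcm6 and Rrm1 hold E2F motifs with CCAAT and no CHR. By role, a CHR was found in 2 of 2 chromosome markers, 2 of 3 mitotic CDK and cyclin genes, 3 of 4 mitotic kinase and passenger genes, 4 of 5 checkpoint genes and 4 of 5 spindle genes, and in 2 of 5 MCM genes. It was found in 0 of 5 DNA synthesis genes. The median log2 fold change with injury in Lepr-ctrl at 2 wpc was 3.0 for the genes with CHR and CCAAT and 1.58 for those without. For the E2F motif these medians were 1.39 with and 2.17 without. Single genes departed from the printed examples. Ccnb1 and Rrm2 held E2F with CCAAT and no CHR, at log2 fold changes of 4.09 and 3.04 in that comparison. Birc5 held none of the motifs, at 3.56, while Bub1b and Cdc20 held CHR and CCAAT, at 0.63 and 1.04. A match is a description of letters in a window, and binding was not measured.

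Injury at 2 wpc was compared with the healthy side within each genotype. In Lepr-ctrl, 32 of the 42 genes were called higher and 0 lower, at an adjusted p under 0.05 and a log2 fold change beyond 1 in edgeR's quasi-likelihood test. Of all genes tested, 19.8% were called higher and 14.3% lower in that comparison. In Lepr-cKO, 31 of the 42 were called higher and 0 lower, against 20.9% and 13.4% of all genes, and 30 genes were called in both genotypes. The Lepr-cKO count was also 31 without the library SLRKO2wpc126i. The median log2 fold change of the 42 was 1.94 in Lepr-ctrl and 1.58 in Lepr-cKO, against 0.08 and 0.10 over all genes. In 36 of the 42 genes every injured library lay above every healthy one in Lepr-ctrl, against 23.8% of all genes, and the count was also 36 in Lepr-cKO, against 20.5%.

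**Figure D1:**
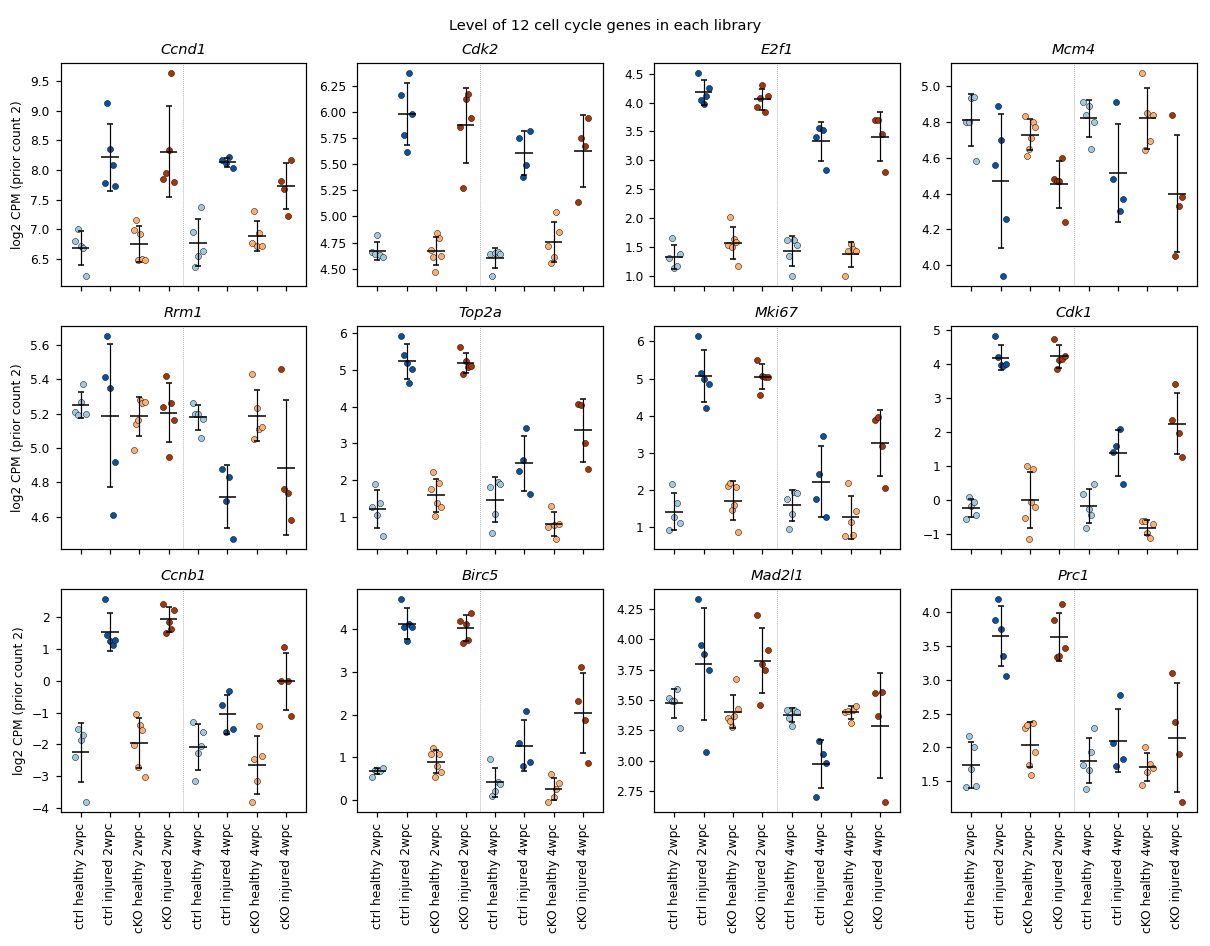
Log2 CPM (vertical axes, prior count 2) of 12 cell cycle genes in each of the 39 libraries, by group (horizontal axis), with the mean and SD of each group as bars. Cdk1, Top2a, Mki67, Birc5 and Ccnb1 are high in all injured 2 wpc libraries and lower at 4 wpc, while the injured libraries of Mcm4 and Rrm1 lie near the healthy ones.

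The D-type cyclins, which start the cycle by activating CDK4 and CDK6, were abundant already in healthy nerve. Ccnd1 had 73.8, 103, 105, 112 and 127.5 CPM in the Lepr-ctrl healthy libraries at 2 wpc and 212, 220, 271, 328 and 557 CPM in the injured ones. In Lepr-cKO it had 89.0 to 143 CPM (median 106) in healthy and 222, 230, 245, 324 and 793 CPM in injured libraries. The injured libraries lay above the healthy ones in both genotypes, and 1 injured library of each genotype stood well above the other 4. The log2 fold change of Ccnd1 was 1.61 ± 0.28 (SE; adjusted p = 6.73e-06, edgeR) in Lepr-ctrl and 1.72 ± 0.26 (adjusted p = 7.96e-07, edgeR) in Lepr-cKO. Ccnd3 rose in Lepr-ctrl (1.21) and Ccnd2 in Lepr-cKO (1.07), while Ccnd2 in Lepr-ctrl (0.78) and Ccnd3 in Lepr-cKO (0.90) passed the adjusted p and stayed under the fold threshold. Per kilobase of transcript, Ccnd1 had the highest level of the 42 genes in Lepr-ctrl nerve at 2 wpc, at 22.1 CPM per kb in healthy and 67.4 in injured tissue, and Ccnb1 the lowest in healthy tissue, at 0.0399.

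Cdk2, the kinase that works with cyclin E at the entry into S phase, had 24.3, 24.6, 24.9, 25.2 and 28.2 CPM in Lepr-ctrl healthy and 49.0, 55.0, 63.0, 71.2 and 82.6 CPM in injured libraries at 2 wpc. Lepr-cKO nerves had 22.2 to 28.6 (median 25.1) CPM on the healthy and 38.6, 58.2, 61.2, 69.5 and 71.7 CPM on the injured side. The groups did not overlap in either genotype, and the log2 fold changes were 1.33 ± 0.14 (adjusted p = 7.34e-10, edgeR) and 1.23 (adjusted p = 1.10e-09, edgeR). Of the cyclins E, Ccne1 rose (1.93 in Lepr-ctrl and 1.15 in Lepr-cKO) and Ccne2 was not called (-0.04 and 0.41).

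E2f1, a transcription factor of genes for DNA replication, rose in both genotypes. It had 2.11, 2.18, 2.40, 2.54 and 3.07 CPM in Lepr-ctrl healthy libraries at 2 wpc and 15.6, 16.5, 17.2, 19.0 and 22.8 CPM in injured ones. In Lepr-cKO the healthy libraries had 2.17 to 3.98 (median 2.86) CPM and the injured ones 14.3, 15.2, 16.8, 17.3 and 19.8 CPM. The gap between the groups was wide against their spread, with log2 fold changes of 2.89 ± 0.18 (adjusted p = 2.10e-15, edgeR) and 2.5 (adjusted p = 6.81e-15, edgeR). Foxm1, a transcription factor of genes for G2 and mitosis, rose by 2.20 on the log2 scale in Lepr-ctrl and by 1.56 in Lepr-cKO.

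The genes of DNA replication split. Among the 6 subunits of the MCM helicase, Mcm2 (1.5 in Lepr-ctrl and 1.20 in Lepr-cKO) and Mcm5 (1.45 and 1.06) rose. Mcm3, Mcm6 and Mcm7 had log2 fold changes of 0.41 to 0.89 and were under the fold threshold. Mcm4 had the highest CPM of the 6 in healthy nerve, while Mcm7 was higher in injured nerve, with group means of 27.0 against 22.6 CPM in Lepr-ctrl at 2 wpc. Mcm4 went the other way, with 23.9, 27.7, 27.8, 30.4 and 30.6 CPM in Lepr-ctrl healthy and 15.3, 19.1, 23.4, 25.8 and 29.5 CPM in injured libraries. The Lepr-cKO libraries had 24.3 to 28.5 (median 26.6) CPM in healthy and 18.8, 22.1, 22.1, 22.2 and 24.2 CPM in injured nerve. The groups overlapped in Lepr-ctrl and not in Lepr-cKO, where Mcm4 was the only gene of the 42 with all injured libraries below all healthy ones, against 20.9% of all genes. Its log2 fold changes were -0.31 (adjusted p = 0.0440, edgeR) and -0.28 (adjusted p = 0.0606, edgeR), far from the fold threshold.

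Among the genes of DNA synthesis, Rrm2, the small subunit of ribonucleotide reductase, rose by 3.04 on the log2 scale in Lepr-ctrl and by 2.87 in Lepr-cKO. Its partner Rrm1, the large subunit, did not pass the test, with 36.5, 36.8, 36.8, 38.5 and 41.2 CPM in Lepr-ctrl healthy and 24.4, 30.3, 40.6, 42.5 and 50.1 CPM in injured libraries at 2 wpc. In Lepr-cKO it had 31.7 to 38.9 (median 37.0) CPM in healthy and 30.7, 35.6, 37.7, 38.4 and 42.8 CPM in injured libraries. Injured and healthy libraries overlapped in both genotypes, and the log2 fold changes were -0.01 (adjusted p = 0.936, edgeR) and 0.03 (adjusted p = 0.872, edgeR). Tyms (1.74 and 1.44) and Tk1 (1.72 and 1.51), enzymes of thymidine nucleotide supply, rose in both genotypes. Pcna, the sliding clamp of DNA polymerase, had log2 fold changes of 0.11 and 0.07 and was not called.

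The largest log2 fold changes of the 42 genes at 2 wpc were those of mitotic genes. Cdk1, the kinase that starts mitosis, had 0.607, 0.668, 0.818, 0.886 and 0.992 CPM in Lepr-ctrl healthy and 15.4, 15.7, 16.2, 18.6 and 28.4 CPM in injured libraries at 2 wpc. Lepr-cKO nerves had 0.382 to 1.96 (median 0.851) CPM on the healthy and 14.6, 17.6, 17.6, 18.9 and 27.0 CPM on the injured side. Every injured library was far above every healthy one, and the log2 fold changes were 4.56 ± 0.38 (adjusted p = 2.77e-12, edgeR) and 4.15 ± 0.35 (adjusted p = 2.08e-12, edgeR).

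Ccnb1, the cyclin that binds CDK1 for entry into mitosis, had 0 to 9 reads in the Lepr-ctrl healthy libraries at 2 wpc, or 0 to 0.279 CPM, and 2.09, 2.32, 2.38, 2.64 and 5.83 CPM in the injured ones. The Lepr-cKO libraries had 0.0516 to 0.417 (median 0.224) CPM in healthy and 2.77, 3.03, 3.56, 4.59 and 5.24 CPM in injured nerve. The groups were apart, and the log2 fold changes of 4.09 (adjusted p = 5.26e-08, edgeR) and 4.14 (adjusted p = 6.19e-09, edgeR) rest on few healthy reads. Ccna2 (3.67 and 3.11) and Ccnb2 (3.25 and 2.66), the other cyclins of S phase and mitosis, rose as well.

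Mki67, the gene of the proliferation antigen Ki-67, had 1.82, 2.09, 2.34, 3.04 and 4.40 CPM in Lepr-ctrl healthy and 18.3, 28.8, 31.6, 35.5 and 70.5 CPM in injured libraries. In Lepr-cKO it had 1.75 to 4.52 (median 3.56) CPM in healthy and 23.6, 32.8, 33.1, 33.5 and 45.5 CPM in injured libraries. There was no overlap, and the log2 fold changes were 3.75 ± 0.40 (adjusted p = 5.84e-10, edgeR) and 3.31 (adjusted p = 1.05e-09, edgeR). Top2a, the topoisomerase that untangles replicated chromosomes, had 1.34, 2.00, 2.34, 2.54 and 3.66 CPM in Lepr-ctrl healthy and 24.8, 32.1, 36.3, 42 and 60.1 CPM in injured libraries. Lepr-cKO nerves had 1.97 to 4.59 (median 2.91) CPM on the healthy and 29.5, 33.5, 34.3, 37.4 and 48.8 CPM on the injured side. The log2 fold changes of Top2a were 4.03 (adjusted p = 4.91e-12, edgeR) and 3.58 (adjusted p = 7.90e-12, edgeR), again with all injured libraries above all healthy ones.

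All 5 genes of the mitotic kinases and the chromosomal passenger complex rose in both genotypes, with log2 fold changes in Lepr-ctrl of 3.93 for Aurkb, 3.56 for Birc5, 2.45 for Cdca8, 2.23 for Aurka and 1.84 for Plk1. Birc5 (survivin), which had the highest CPM of them as a mean over all 39 libraries and less than Plk1 in healthy nerve, had 1.40, 1.53, 1.55, 1.55 and 1.6 CPM in Lepr-ctrl healthy and 13.3, 16.5, 16.5, 17.6 and 26.1 CPM in injured libraries. The Lepr-cKO libraries had 1.39 to 2.28 (median 1.85) CPM in healthy and 12.8, 13.4, 17.5, 18.4 and 20.9 CPM in injured nerve. The groups did not overlap, and the adjusted p was 7.67e-13 in Lepr-ctrl and 1.10e-12 in Lepr-cKO (edgeR).

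The genes of the spindle checkpoint and the anaphase-promoting complex were mixed. Bub1, a checkpoint kinase (4.04 and 3.87), and Ube2c, the ubiquitin-conjugating enzyme of that complex (4.47 and 3.84), rose in both genotypes. Ube2c shares exon bases with the muscle gene Tnnc2, which had 72.4 CPM in the library SLRKO2wpc126i and at most 0.0820 CPM elsewhere. In that library Ube2c had 9.13 CPM, inside the 6.42 to 12.2 CPM of the other Lepr-cKO injured libraries at 2 wpc. Cdc20, the activator of the complex, rose in Lepr-ctrl (1.04) and was under the fold threshold in Lepr-cKO (0.82), and Bub1b had 0.63 and 0.60.

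Mad2l1, a checkpoint protein and the gene of this group with the highest CPM, had 9.57, 11.2, 11.2, 11.4 and 12 CPM in Lepr-ctrl healthy and 8.35, 13.4, 14.6, 15.4 and 20.0 CPM in injured libraries. In Lepr-cKO it had 9.62 to 12.7 (median 10.2) CPM in healthy and 10.9, 13.4, 13.9, 15 and 18.3 CPM in injured libraries. The groups overlapped in both genotypes, and the log2 fold changes of 0.38 (adjusted p = 0.0342, edgeR) and 0.43 (adjusted p = 0.0104, edgeR) were under the fold threshold.

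All 7 genes of the spindle and midzone rose in both genotypes. In Lepr-ctrl the log2 fold changes were 3.81 for Cenpf and 2.17 for Cenpe, which act at kinetochores, 3.08 for Kif23 and 1.87 for Kif20a, kinesins of cytokinesis, 3.0 for the spindle kinesin Kif11, 3.01 for the spindle assembly factor Tpx2 and 1.94 for Prc1. Prc1, which bundles midzone microtubules, had 2.61, 2.63, 3.14, 3.96 and 4.43 CPM in healthy and 8.24, 10.1, 13.4, 14.6 and 18.1 CPM in injured libraries. Lepr-cKO nerves had 2.93 to 5.05 (median 4.29) CPM on the healthy and 10, 10.1, 11, 14.6 and 17.3 CPM on the injured side. All injured libraries were above all healthy ones, with an adjusted p of 1.16e-07 in Lepr-ctrl and 9.04e-07 in Lepr-cKO (edgeR).

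**Figure D2:**
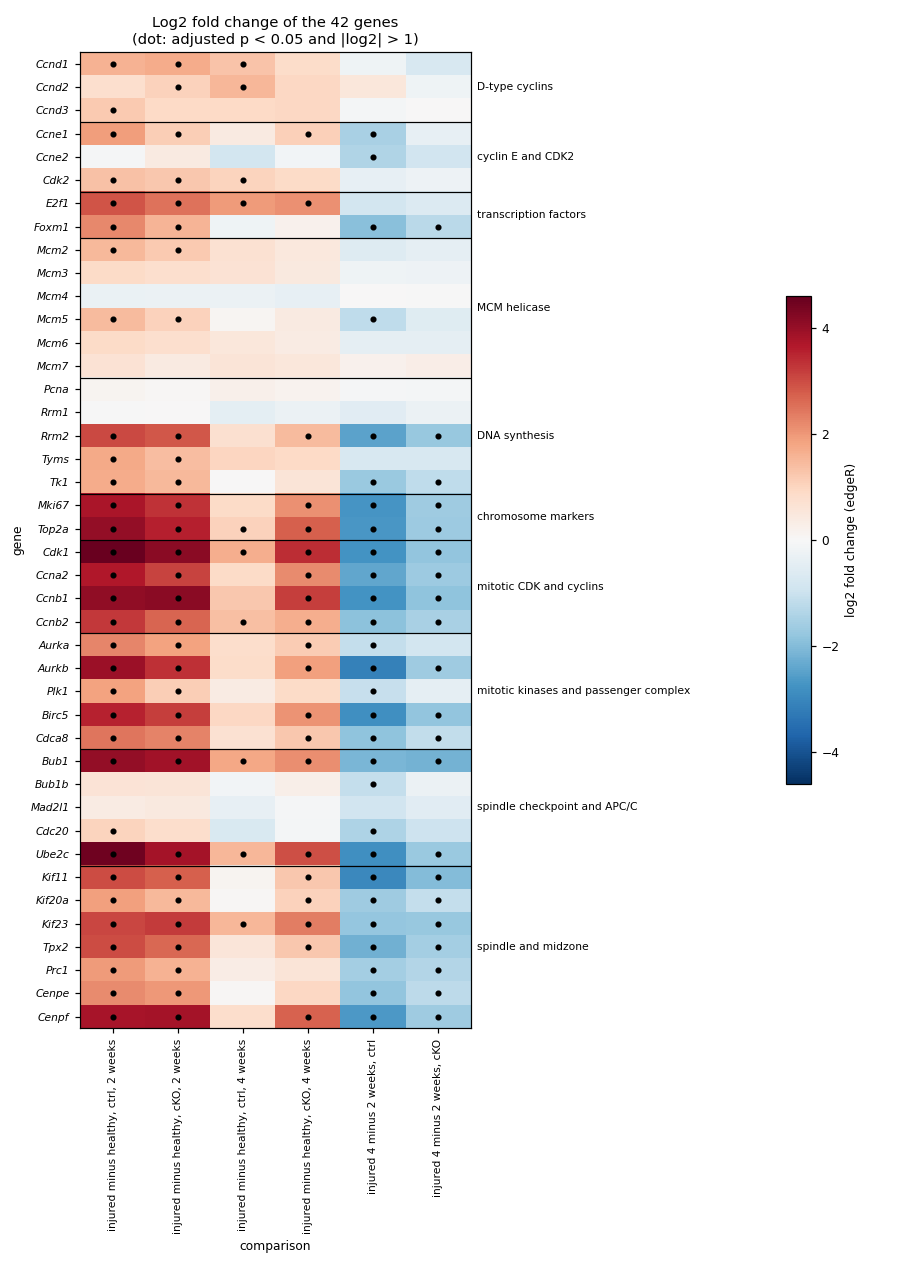
Log2 fold change (colour) of the 42 genes (vertical axis, by role) in 4 injury comparisons and in injured nerve at 4 against 2 wpc (horizontal axis), with a dot where a gene was called. The red columns of 2 wpc carry 32 and 31 dots, those of 4 wpc 10 and 20, and the blue columns of time 28 and 21.

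Markers of several other cell types were called higher in the same comparisons. Of 10 macrophage markers, 7 were called higher with injury at 2 wpc in each genotype, and their summed level was at most 360 CPM in healthy and 902 to 3400 CPM in injured libraries at that time. All 6 T and NK cell markers were called higher in all 4 injury comparisons, at summed levels of 0.283 to 1.41 CPM in healthy and 4.35 to 23.8 CPM in injured libraries. Of 8 Schwann cell markers, 2 were called higher and 2 lower in Lepr-ctrl at 2 wpc, and 2 higher and 3 lower in Lepr-cKO. Endothelial markers were called higher in 2 and 4 of 6 at 2 wpc. All 5 adipocyte markers were called higher in Lepr-ctrl and 1 of 5 in Lepr-cKO, with summed levels of 0.279 to 154 CPM in healthy and 14.7 to 871 CPM in injured libraries over both times. Of 8 fibroblast markers, 1 was called higher and 2 lower in Lepr-ctrl and 1 higher and 1 lower in Lepr-cKO at 2 wpc, of 5 erythrocyte markers 0, and of 2 B cell markers with enough reads 1 higher in each genotype, with Ms4a1 at 0 in all Lepr-ctrl healthy libraries. The part of each cell type in the rise of the 42 genes was not tested.

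At 4 wpc fewer of the 42 genes were higher in injured nerve. In Lepr-ctrl, 10 of the 42 genes were called higher and 0 lower, against 20.1% and 15.9% of all genes. In Lepr-cKO, 20 were called higher and 0 lower, against 16.8% and 10.8% of all genes. The median log2 fold change of the 42 was 0.69 in Lepr-ctrl and 0.95 in Lepr-cKO, against 0.02 and 0.06 over all genes. In 13 genes every injured library lay above every healthy one in Lepr-ctrl, against 27.4% of all genes, and in 19 genes in Lepr-cKO, against 21.0%. With the adjusted p alone and no fold threshold, 25 and 34 of the 42 passed in either direction, against 63.6% and 55.3% of all genes. Of the genes called at 2 wpc, 9 in Lepr-ctrl and 20 in Lepr-cKO were also called at 4 wpc, and 23 and 11 were not. Ccnd2 was called in Lepr-ctrl at 4 wpc and not at 2 wpc. Without the Lepr-ctrl injured library WT-173Sni the Lepr-ctrl count at 4 wpc was 8 higher and 1 lower, Ccne2 at -1.02 (adjusted p = 9.30e-05, edgeR). E2f1, Top2a, Cdk1, Ccnb2, Bub1, Ube2c and Kif23 were called in all 4 injury comparisons, and 9 genes (Ccne2, Mcm3, Mcm4, Mcm6, Mcm7, Pcna, Rrm1, Bub1b and Mad2l1) in none. For these counts over several comparisons, and for the 30 called in both genotypes at 2 wpc, the share of all genes is not given here. No genotype difference is read from them.

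Of the genes of G1 and S phase entry, Ccnd1, Ccnd2, Cdk2 and E2f1 were called higher at 4 wpc in Lepr-ctrl, and Ccne1 and E2f1 in Lepr-cKO. Ccnd1 had 82.1, 93.4, 99.3, 124 and 165 CPM in Lepr-ctrl healthy and 262, 276, 286 and 296 CPM in injured libraries at 4 wpc, without overlap, and a log2 fold change of 1.31 ± 0.29 (adjusted p = 0.000195, edgeR). Lepr-cKO gave 105, 105, 108, 122 and 159 CPM in healthy and 150, 204, 226 and 288 CPM in injured libraries, with 1 injured library inside the healthy range, and 0.86 ± 0.29 (adjusted p = 0.0118, edgeR). Ccnd2 was called in Lepr-ctrl (1.54), and in Lepr-cKO it had 0.94, just under the fold threshold. Cdk2 was called in Lepr-ctrl (1.01), with 41.6, 45.0, 53.7 and 56.4 CPM in injured against 21.5 to 25.2 CPM in healthy libraries. In Lepr-cKO it had 35.2, 51.0, 53.9 and 61.2 CPM against 23.6 to 32.9 CPM, also without overlap, and a log2 fold change of 0.89. Ccne1 had 1.40 to 2.53 CPM in injured and 0.958 to 1.84 CPM in healthy Lepr-ctrl libraries, which overlapped (0.40, adjusted p = 0.137, edgeR), and 2.15 to 4.21 CPM against 1.14 to 1.72 CPM in Lepr-cKO, which did not (1.10, adjusted p = 0.000124, edgeR). Ccne2 had 1.88 to 3.45 CPM in injured and 3.88 to 5.67 CPM in healthy Lepr-ctrl libraries, all injured ones lower, and 3.33 to 5.22 CPM against 3.70 to 5.39 CPM in Lepr-cKO, with overlap. E2f1 rose in both genotypes. It had 1.93 to 3.01 CPM in healthy and 7.04, 10.5, 11.4 and 11.7 CPM in injured Lepr-ctrl libraries, and 1.91 to 2.83 CPM in healthy and 6.85, 10.9, 12.8 and 13.0 CPM in injured Lepr-cKO libraries (1.94 and 2.11).

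The mitotic genes were nearer to their healthy levels. Cdk1 had 0.50, 0.674, 0.761, 1.07 and 1.33 CPM in Lepr-ctrl healthy and 1.31, 2.61, 2.93 and 4.18 CPM in injured libraries at 4 wpc. The Lepr-cKO libraries had 0.389, 0.444, 0.546, 0.585 and 0.586 CPM in healthy and 2.35, 3.91, 5.11 and 10.6 CPM in injured nerve. The Lepr-ctrl groups met at their edges and the Lepr-cKO groups did not overlap, and Cdk1 was called in both, at 1.68 ± 0.39 (adjusted p = 0.000321, edgeR) and 3.41 ± 0.40 (adjusted p = 9.87e-09, edgeR).

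Mki67 had 1.88, 2.51, 3.30, 3.69 and 3.83 CPM in Lepr-ctrl healthy and 2.35, 3.31, 5.35 and 10.9 CPM in injured libraries, which overlapped, and it was not called (0.87, adjusted p = 0.0584, edgeR). In Lepr-cKO it had 1.64, 1.64, 2.14, 2.65 and 4.47 CPM in healthy and 4.11, 8.98, 14.7 and 15.5 CPM in injured libraries and was called (2.11, adjusted p = 3.47e-05, edgeR), with 1 injured library below the highest healthy one. Top2a was called in Lepr-ctrl at 1.07 (adjusted p = 0.00738, edgeR), with 3.0, 4.70, 5.80 and 10.6 CPM in injured and 1.42 to 3.81 CPM in healthy libraries. That call rests on 1 library: without WT-173Sni, the highest, the log2 fold change was 0.64 (adjusted p = 0.126, edgeR). In Lepr-cKO, Top2a had 4.89, 7.97, 16.4 and 16.6 CPM in injured and 1.25 to 2.38 CPM in healthy libraries, without overlap (2.74).

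Birc5 had 1.66, 1.78, 2.44 and 4.18 CPM in Lepr-ctrl injured libraries and 1.00 to 1.89 CPM in healthy ones (0.97, under the fold threshold), and 1.76, 3.60, 4.96 and 8.64 CPM against 0.898 to 1.47 CPM in Lepr-cKO, where it was called (2.05). Ccnb1 had 0.255, 0.282, 0.522 and 0.724 CPM in Lepr-ctrl injured libraries against 0.0417 to 0.334 CPM, and it was not called (1.24, adjusted p = 0.0867, edgeR). Lepr-cKO gave 0.391, 0.914, 0.918 and 2.02 CPM against 0 to 0.302 CPM and was called (3.18). All of the Lepr-cKO injured libraries lay above the healthy ones for both genes, and the Lepr-ctrl groups overlapped for both.

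By role, 1 of 7 spindle genes was called at 4 wpc in Lepr-ctrl and 5 of 7 in Lepr-cKO. Of 5 mitotic kinase and passenger genes it was 0 and 4. Of all genes, 20.1% were called higher in Lepr-ctrl and 16.8% in Lepr-cKO. With the animal as a block, since most mice gave both nerves, the spindle count was 4 of 7 in Lepr-cKO, without Kif20a. The kinase and passenger count was then 2 of 5 in Lepr-ctrl, with Aurkb and Birc5. In that fit 3604 of all 18442 genes were called higher in Lepr-ctrl and 2885 in Lepr-cKO. All these counts are of separate tests, and the test of the genotype difference follows further on. Prc1 was called in neither genotype, with 3.25, 3.47, 4.09 and 6.74 CPM in Lepr-ctrl injured and 2.22, 3.65, 5.14 and 8.52 CPM in Lepr-cKO injured libraries, both overlapping the healthy side at 2.54 to 4.82 and 2.65 to 3.96 CPM.

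A few genes lay below the healthy side at 4 wpc in Lepr-ctrl without passing the fold threshold. Every injured library was below every healthy one for Ccne2 (-0.83), Cdc20 (-0.69), Rrm1 (-0.46) and Mad2l1 (-0.39), 4 of the 42 genes against 27.4% of all genes. Rrm1 had 22.1, 25.8, 28.4 and 29.3 CPM in these injured and 33.4 to 38.2 CPM in healthy libraries. Mad2l1 had 6.44, 7.79, 8.25 and 8.86 CPM in injured and 9.72 to 10.6 CPM in healthy libraries. In Lepr-cKO the same 2 genes overlapped the healthy side, with 23.9, 26.6, 27.0 and 44.0 CPM for Rrm1 and 6.26, 10.3, 11.8 and 11.8 CPM for Mad2l1 in injured libraries, and 0 of the 42 genes had all injured libraries below, against 20.9% of all genes. Mcm4 overlapped in both genotypes, at 19.6, 20.7, 22.2 and 29.9 CPM in Lepr-ctrl injured and 16.5, 20.0, 20.8 and 28.7 CPM in Lepr-cKO injured libraries.

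**Figure D3:**
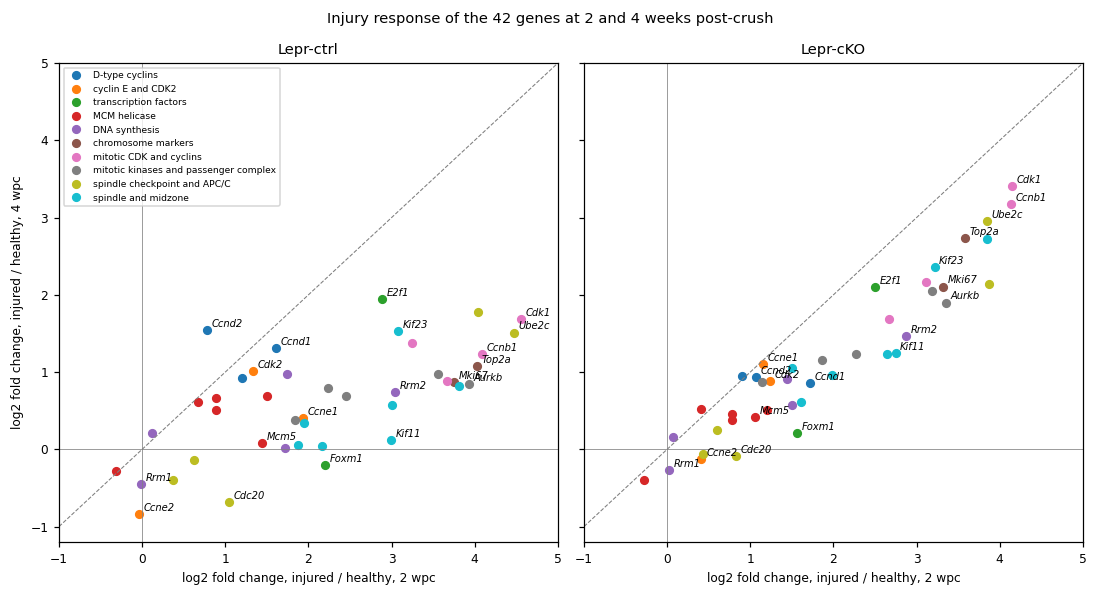
Log2 fold change of injured over healthy nerve at 2 wpc (horizontal axis) and 4 wpc (vertical axis) for each of the 42 genes, coloured by role, in Lepr-ctrl and Lepr-cKO, with a dashed line of equal values. Most genes lie below the line, Cdk1 at 4.56 and 1.68 in Lepr-ctrl and 4.15 and 3.41 in Lepr-cKO, and Ccnd2 lies above it in Lepr-ctrl, at 0.78 and 1.54.

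Injured nerve was then compared between 4 and 2 wpc. In Lepr-ctrl, 28 of the 42 genes fell and 0 rose, against 4.31% of all genes called lower. In Lepr-cKO, 21 fell and 0 rose, against 3.18%, and all 21 were among the 28. The median log2 fold change of the 42 was -1.53 in Lepr-ctrl and -1.02 in Lepr-cKO. In Lepr-ctrl, Aurkb fell by 3.12, Kif11 by 2.95, Birc5 by 2.82, Ube2c by 2.82 and Cdk1 by 2.75 on the log2 scale. In Lepr-cKO, Bub1 fell by 2.18 and Kif11 by 2.01, and Cdk1 by 1.80.

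All 7 spindle genes and all 4 mitotic CDK and cyclin genes fell in both genotypes, and Rrm2 fell by 2.45 in Lepr-ctrl and 1.74 in Lepr-cKO. Of the D-type cyclins none was called, with Ccnd1 at -0.18 and -0.74 and Ccnd2 at 0.52 and -0.18. Of the MCM genes only Mcm5 was called, in Lepr-ctrl, and Mcm7 had log2 differences of 0.21 and 0.31. In Lepr-cKO the count was 5 (Foxm1, Top2a, Aurkb, Bub1 and Kif11) and not 21 with only the injured Lepr-cKO libraries in the fit.

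The time points are different mice, and the labels do not date their preparation or sequencing, so that time and a batch cannot be told apart in this comparison. Healthy nerve was compared in the same way. There, 0 of the 42 genes were called between 4 and 2 wpc in Lepr-ctrl and 0 in Lepr-cKO, against 0.174% and 0.119% of all genes, and DESeq2 also called 0. At an unadjusted p under 0.05 there were 3 of the 42 in Lepr-ctrl, against 16.1% of all genes, and 9 in Lepr-cKO, against 9.92%. The smallest p values were those of Ccne2 in Lepr-ctrl (-0.58, adjusted p = 0.0682, edgeR) and Cdk1 in Lepr-cKO (-1.06, adjusted p = 0.268, edgeR).

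The change of the injury response itself, injured minus healthy at 4 wpc less that at 2 wpc, was lower for 26 of the 42 genes in Lepr-ctrl, against 2.81% of all genes, with Aurkb at -3.09, Top2a at -2.96 and Foxm1 at -2.41 (adjusted p = 1.64e-05, edgeR). In Lepr-cKO it was lower for 1 gene, Foxm1 at -1.35 ± 0.29 (adjusted p = 0.00844, edgeR), against 0.466% of all genes. DESeq2 called 5 of the 42 lower, and 121 of all genes. The edgeR count depended on single libraries. It was 8 without the Lepr-cKO injured 4 wpc library KO-169Sni (167 of all genes lower) and 5 without KO-175Sni (59). It was 3 without the 2 wpc library SLRKO2wpc126i (108) and 2 without the healthy library KO-169Snc (65). Foxm1 had 9.47, 11.1, 13.8, 14.0 and 14.7 CPM in Lepr-cKO injured libraries at 2 wpc and 3.39, 5.28, 6.17 and 6.73 CPM at 4 wpc, with healthy libraries at 2.71 to 5.46 CPM over both times. In Lepr-ctrl it had 11.3, 11.8, 13.0, 14.6 and 24 CPM at 2 wpc and 3.38, 3.83, 4.22 and 4.40 CPM at 4 wpc, and healthy libraries had 2.70 to 6.11 CPM. At 4 wpc the injured libraries overlapped the healthy ones in both genotypes.

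The genotype comparison asked whether the loss of the leptin receptor in Schwann cells altered these levels. In injured nerve at 2 wpc, 0 of the 42 genes were called, against 0.569% of all genes, and 1 gene had an unadjusted p under 0.05, against 6.44% of all genes. The 105 genes called among all genes were all higher in Lepr-cKO, the group that holds the muscle-rich library SLRKO2wpc126i. The part of that library in these calls was not tested. DESeq2 also called 0 of the 42, and 22 of all genes. With only the groups compared in the fit, 0 of all genes were called. The median log2 difference of Lepr-cKO from Lepr-ctrl was -0.09. The 4 smallest p values, none of them called, were those of Ccne1 at -0.46 (95% interval -0.87 to -0.06, adjusted p = 0.705, edgeR), Mcm7 at -0.18, Plk1 at -0.36 and Ccne2 at 0.27. Ccne1 had 3.90, 5.06, 5.10, 5.46 and 7.24 CPM in Lepr-ctrl and 2.95, 3.5, 3.97, 4.29 and 4.66 CPM in Lepr-cKO, and the groups overlapped. For Cdk1 the levels were nearly equal at this time, with means of 18.8 ± 5.51 and 19.1 ± 4.69 CPM (SD, n = 5 and n = 5).

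**Figure D4:**
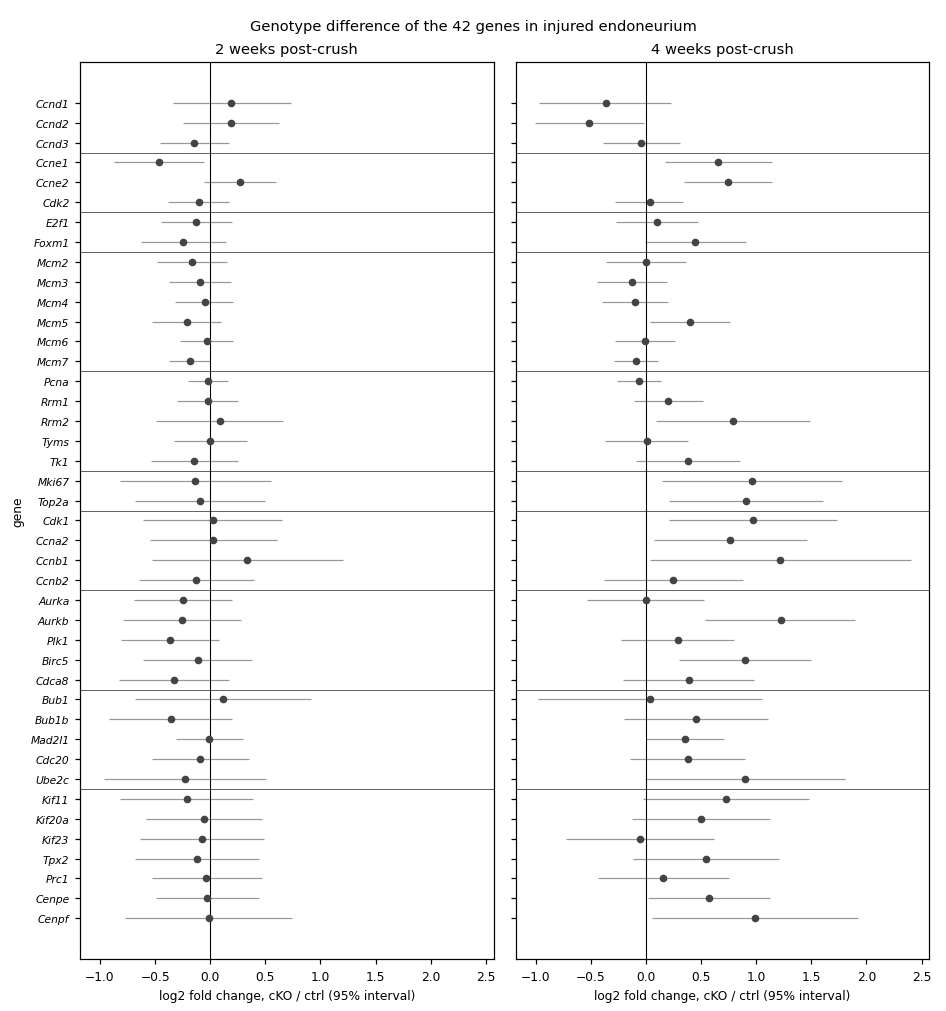
Log2 fold change of Lepr-cKO over Lepr-ctrl in injured endoneurium (horizontal axes, points with 95% intervals) for the 42 genes (vertical axis, by role) at 2 and 4 wpc. At 2 wpc 9 of the 42 points lie above 0 and at 4 wpc 32 of 42, and edgeR called no gene at either time, while DESeq2 called Aurkb at 4 wpc.

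In injured nerve at 4 wpc, 0 of the 42 genes were called, against 0.450% of all genes, and 12 had an unadjusted p under 0.05, against 19.9% of all genes. DESeq2 called 1, Aurkb, and 129 of all genes. The median log2 difference was 0.38, against 0.03 over all genes, and 32 of the 42 were above 0, against 53.6% of all genes. The 42 genes share their libraries, so that 1 library can move many of them at once.

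Ccne2, a cyclin E, had 1.88, 1.91, 3.05 and 3.45 CPM in Lepr-ctrl and 3.33, 3.83, 4.92 and 5.22 CPM in Lepr-cKO, which met at their edges, and a log2 difference of 0.75 ± 0.20 (95% interval 0.35 to 1.14, adjusted p = 0.0536, edgeR). Aurkb, the kinase of the passenger complex, had 0.701, 0.871, 1.11 and 1.31 CPM in Lepr-ctrl and 1.47, 1.89, 2.19 and 3.67 CPM in Lepr-cKO, and a log2 difference of 1.22 ± 0.35 (95% interval 0.54 to 1.90, adjusted p = 0.0616, edgeR). It was the only gene of the 42 in which every Lepr-cKO library lay above every Lepr-ctrl one, against 2.92% of all genes. Birc5 (0.90 ± 0.31, adjusted p = 0.0947, edgeR) and Ccne1 (0.66 ± 0.25, adjusted p = 0.132, edgeR) came next. The interval for Birc5, 0.30 to 1.5, and that for Ccne1, 0.17 to 1.14, leave room for a difference on either side of the fold threshold.

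One library weighed heavily on this count. Without the Lepr-cKO injured library KO-177Sni, 8 of the 42 genes were called higher in Lepr-cKO (Rrm2, Mki67, Top2a, Cdk1, Ccna2, Aurkb, Birc5 and Cenpf), against 1.90% of all genes. Without the Lepr-ctrl injured library WT-173Sni it was 1, Birc5, against 0.863% of all genes. KO-177Sni had the lowest mean log2 CPM over the 42 genes in its group, at 2.27, against 2.57, 3.17 and 3.17 in the other Lepr-cKO libraries and 2.19, 2.37, 2.45 and 2.81 in the Lepr-ctrl ones. Its 8 Schwann cell markers summed to 2200 CPM, against 3950, 4440 and 5940 CPM in the others of its group and 2100, 2710, 2810 and 3450 CPM in Lepr-ctrl. Macrophage markers summed to 1320 to 2230 CPM in Lepr-cKO and 1920 to 4230 CPM in Lepr-ctrl, and all 10 of them had a log2 difference below 0, with 0 called. Endothelial markers summed to 389 to 1030 CPM, the highest in KO-177Sni, and to 599 to 955 CPM in Lepr-ctrl. All 8 Schwann cell markers had a log2 difference above 0, with a median of 0.54 and 0 called. The part of these markers, and of the library, in the genotype difference was not tested.

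**Figure D5:**
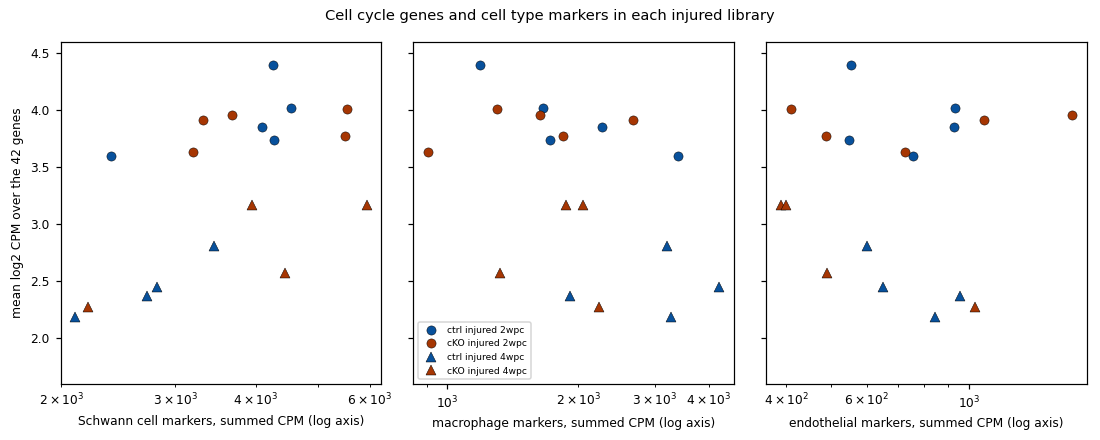
Mean log2 CPM over the 42 genes (vertical axis) against the summed CPM of Schwann cell, macrophage and endothelial markers (log horizontal axes) in each of the 18 injured libraries. The 4 wpc libraries (triangles) sit at 2.19 to 3.17 and the 2 wpc libraries (circles) at 3.60 to 4.40, and the lowest Lepr-cKO triangle, at 2.27, lies among the Lepr-ctrl ones on the Schwann cell axis.

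The genotype difference of the injury response, which subtracts the healthy side, gave no call among the 42 genes at 2 wpc or at 4 wpc, and none among all genes (0.0%) in edgeR at either time. DESeq2 called 0 of the 42, and 2 and 4 of all genes. Unadjusted p values under 0.05 were found for 4 of the 42 at 2 wpc, against 4.32% of all genes, and for 14 of the 42 at 4 wpc, against 10.9%. The median difference was -0.26 at 2 wpc and 0.45 at 4 wpc. At 4 wpc the smallest p values were those of Top2a (1.67 ± 0.49), Cdk1 (1.73 ± 0.55), Cenpf (1.89 ± 0.66) and Ccne2 (0.70 ± 0.27), each with an adjusted p of 0.384 (edgeR). At 2 wpc they were those of Ccne1 (-0.78), Foxm1 (-0.65), Plk1 (-0.70) and Mcm7 (-0.27), each with an adjusted p of 0.999 (edgeR).

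The change of the genotype difference in injured nerve from 2 to 4 wpc was likewise not called for any of the 42 genes, nor for any of all genes (0.0%) in edgeR. DESeq2 called 0 of the 42 and 53 of all genes. Of the 42 genes, 7 had an unadjusted p under 0.05, against 15% of all genes. Ccne1 was lowest in p, at 1.12 ± 0.32 (adjusted p = 0.134, edgeR), then Aurkb at 1.48 ± 0.44 (adjusted p = 0.146, edgeR), Birc5 at 1.02 and Mcm5 at 0.62. Ccne1 was called without KO-177Sni, against 0.725% of all genes called higher. Aurkb was called without the Lepr-ctrl injured 2 wpc library SLRKO2wpc144i, against 1.10%. The same change of the injury response, a comparison added after the data had been seen, gave 0 calls among the 42 and among all genes (0.0%) in edgeR and in DESeq2, with 15 of the 42 at an unadjusted p under 0.05 against 7.84% of all genes. Its smallest p values were those of Ccne1 (1.48 ± 0.44), Top2a (2.12), Cdk1 (2.13) and Ccna2 (1.84), each with an adjusted p of 0.575 (edgeR).

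In healthy nerve, 0 of the 42 genes were called between the genotypes at 2 wpc and 0 at 4 wpc, against 0.00542% of all genes at each time, and DESeq2 also called 0 of them. Unadjusted p values under 0.05 were found for 1 and 2 of the 42, against 1.20% and 1.88% of all genes. At 2 wpc the smallest p values were those of Foxm1 (0.40), Ccna2 (0.58), Tyms (0.31) and Ccnb2 (0.45), and Tyms had all 6 Lepr-cKO libraries (3.33 to 3.93 CPM) above all 5 Lepr-ctrl ones (2.23 to 3.29 CPM), against 0.103% of all genes. At 4 wpc they were those of Kif23 (-0.89), Top2a (-0.75), Cenpf (-0.91) and Cdk1 (-0.76), all with lower values in Lepr-cKO and an adjusted p of 1.0 (edgeR). These healthy libraries enter the injury response of Lepr-cKO at 4 wpc, in which the same genes had large fold changes. The part of the healthy libraries in those fold changes was not tested.

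The other genes of the cell cycle were described from 4 lists of 67, 44, 19 and 6 genes. With injury at 2 wpc, 81 of them were called higher and 2 lower in Lepr-ctrl and 76 higher and 1 lower in Lepr-cKO. At 4 wpc it was 37 higher and 7 lower in Lepr-ctrl, and 51 and 2 in Lepr-cKO. Of 67 further mitosis genes, 56 were called higher in each genotype at 2 wpc, against 19.8% and 20.9% of all genes. At 4 wpc it was 23 and 36, against 20.1% and 16.8%. From 2 to 4 wpc in injured nerve 52 fell in Lepr-ctrl and 46 in Lepr-cKO, against 4.31% and 3.18%. Of 44 further replication genes, 17 and 13 were called higher at 2 wpc, against 19.8% and 20.9% of all genes, and 10 in each genotype at 4 wpc, against 20.1% and 16.8%. Of 19 further transcription regulators of the cycle, 6 were called higher in each genotype at 2 wpc. Of 6 genes of G1 and CDK-activating kinases it was 2 and 1, both lists against the same 19.8% and 20.9% of all genes.

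In Lepr-ctrl at 2 wpc the largest log2 fold changes in these lists were those of the mitosis genes Pimreg (4.89), Depdc1a (4.68) and Cdca5 (4.50), the replication genes Dtl (3.88), Clspn (3.80) and Uhrf1 (3.49), and the transcription factors E2f2 (4.14), E2f7 (3.17) and E2f8 (2.40). Cdk6 (1.70) and Cdk4 (1.07), the partners of the D-type cyclins, rose as well. As in the 42 genes, the mitosis list had the larger share of calls, 56 of 67 against 17 of 44 in the replication list.

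Orc1, the largest subunit of the origin recognition complex, was the only gene of these lists called between the genotypes in injured nerve at 4 wpc, at 1.56 ± 0.31 (adjusted p = 0.0164, edgeR), and it is named here after its value was seen. It had 0.188, 0.446, 0.610 and 0.613 CPM in Lepr-ctrl, from 2 to 11 reads, and 1.26, 1.30, 1.43 and 1.62 CPM in Lepr-cKO, from 20 to 39 reads. The groups did not overlap, and 2.92% of all genes had every Lepr-cKO library above every Lepr-ctrl one. Healthy libraries at 4 wpc had 1.22 to 1.70 CPM in Lepr-ctrl and 1.36 to 1.90 CPM in Lepr-cKO, so that the Lepr-cKO injured libraries lay in or near the healthy range and the Lepr-ctrl injured libraries below it.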

How the data were processed

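Endoneurial poly(A) RNA of 39 libraries (8 groups of 4 to 6) was sequenced by the authors with TruSeq RNA v2 kits, which do not mark strand, as single reads of 50 bases. Per the labels and the study's methods, reads were converted with bcl2fastq 2.20.0.422, aligned to GRCm38 with STAR 2.5 (up to 2 mismatches) and counted per gene with featureCounts 1.5.0-p1. The deposited values are raw read counts per Ensembl gene, and the use of strand and of multi-mapped reads is not given in the sources used here. Of the 42 genes, 16 share exon bases with another gene (14 with one on the opposite strand) and 5 have a pseudogene named after them, so reads could be shared.

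Gene names came from GENCODE vM21 (99.83% of IDs). Counts of all 39 libraries were fitted in edgeR 4.0.16 (R 4.3.3) with TMM scaling, filterByExpr (minimum count 10, minimum total 15), 1 coefficient per group and the quasi-likelihood F test, with Benjamini-Hochberg adjustment over 18442 genes. Genes were called at an adjusted p below 0.05 with a log2 fold change of more than 1 either way. CPM are TMM-scaled, and log2 CPM use a prior count of 2. Intervals are the estimate ± 1.96 SE. On simulated counts for injury in Lepr-ctrl at 2 wpc over 18442 genes, 171 of 200 genes with a 4-fold change (85.5%) were recovered under both thresholds. Of 200 with a 2-fold change, the size of the fold threshold, 111 (55.5%, over 18441 genes) were recovered by the adjusted p alone. Recovery of 2-fold changes under both thresholds was not measured. With about 10.9 reads per CPM in the smallest library, genes under 1 CPM rest on few reads, and all intervals leave out errors not seen between libraries. Replicates are different mice.

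The labels tie 17 pairs of healthy and injured libraries to the same animal. Their deviations from group means correlated at -0.116 to 0.567 over 5000 genes, over 0.1 in 14 of 17. DESeq2 1.42.0, other size factors and filters, the animal as a block and leaving out libraries were tried as alternatives. The 42 genes, the lists and the tests were chosen with earlier results of these data known. Values in every library were given for the gene of each of 10 role groups with the highest mean CPM and for Mki67, Cdk1 and Ccnb1, then for called genes or, where none was called, the up to 4 genes with the smallest p, and of other lists up to 3 genes with the largest change. One gene of the Schwann cell marker list is not reported here and was left out of its counts and sums. Promoters were RefSeq windows, and motifs were searched on both strands.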

Additional observations from a re-analysis of the deposited data

Results flagged for a closer look

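In 96 sets of a gene and a group, 4 held a library that stood apart from the rest by Dixon's test at 95%, and chance alone gives about 1 in 20. Cdk2 was 28.2 CPM in the Lepr-ctrl healthy 2 wpc library SLRKO2wpc130c, with the others at 24.3 to 25.2 CPM. It was 21.5 CPM in the Lepr-ctrl healthy 4 wpc library WT-170Snc, with the others at 24.8 to 25.2 CPM. E2f1 was 1.91 CPM in the Lepr-cKO healthy 4 wpc library KO-169Snc, with the others at 2.60 to 2.83 CPM. Ccnb1 was 5.83 CPM in the Lepr-ctrl injured 2 wpc library SLRKO2wpc123i, with the others at 2.09 to 2.64 CPM.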

How the results depend on the processing

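Values of a selection of genes were recomputed under the alternatives. Of these, 1230 kept their direction and their side of the thresholds, 11 passed them anew, 7 no longer passed and none changed direction. The 7 were values of Top2a and Ccnb1. Losses in genes outside the selection, such as Ccnd2 and Kif20a with the animal as a block, are not among them. With the adjusted p alone, 25 genes were called in Lepr-ctrl and 34 in Lepr-cKO at 4 wpc. With at least 10 counts in every library, which leaves 33 of the 42 genes, 11 were called with injury in Lepr-cKO at 4 wpc, 12 over time in Lepr-cKO injured nerve and 17 for the change of response in Lepr-ctrl. DESeq2 called 1 gene between genotypes in injured nerve at 4 wpc, and 129 of all genes. It called 5 for the change of response in Lepr-cKO, and 121 of all genes lower. A fit of only the groups compared called 5 over time in Lepr-cKO injured nerve, and 48 of all genes lower. The cause of the last 3 was not tested. With single libraries left out (the 6 Lepr-cKO healthy 2 wpc libraries were not), the genotype count at 4 wpc in injured nerve ranged from 0 to 8, the change of response in Lepr-cKO from 1 to 8, the change of the genotype difference from 0 to 1, and the injury counts from 31 to 32 and 29 to 31 at 2 wpc and from 9 to 13 and 17 to 23 at 4 wpc, for Lepr-ctrl and Lepr-cKO. The 9 were 9 higher without WT-170Snc, and 8 higher and 1 lower (Ccne2) without WT-173Sni. The fall over time ranged from 26 to 29 and from 19 to 23. A prior count of 0.5 moved the mean log2 CPM of the 42 genes in Lepr-cKO healthy nerve at 4 wpc to 1.68.

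With the animal as a block for pairing, 32, 30, 13 and 20 genes were called with injury (Lepr-ctrl and Lepr-cKO at 2 wpc, then at 4 wpc), 25 and 1 for the change of response in Lepr-ctrl and Lepr-cKO, and 0 for the genotype difference of the response. Under it 3 calls were lost (Ccnd2 in Lepr-cKO at 2 wpc, Kif20a in Lepr-cKO at 4 wpc and Ccnb1 in the change of response, at -2.56 with an adjusted p of 0.142) and 4 were gained (Ccna2, Aurkb and Birc5 in Lepr-ctrl and Ccnd3 in Lepr-cKO at 4 wpc).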
